A study of Mus musculus with 6 samples.

Results

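The 33 genes described here encode the proteins that bring glucose into the cell, break it down to pyruvate and lactate, and run the pentose phosphate pathway. They were chosen by name, as the glucose transporters, the enzymes of each step, the carriers of lactate and pyruvate and 2 regulatory kinases, and they are 33 of the 55378 genes in the deposited count table. Mouse zygotes had been injected with an siRNA against Eif4a3 or with a negative control siRNA (NC), and were collected on day 5 as blastocysts. Each of the 6 libraries, 3 per group, was made with Smart-seq2 from a pool of 5 embryos and sequenced as paired reads of 150 bases. Mouse strain and parents are not given in the labels, which do not say whether the pools of a group came from separate parents, so p-values measure the spread between these pools. Eif4a3 encodes a helicase that anchors the exon junction complex, a protein assembly left on mRNA by splicing.

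Glycolysis splits glucose into 2 molecules of pyruvate and yields ATP and NADH, and lactate dehydrogenase turns pyruvate into lactate to recover the NAD that an earlier step needs. The pentose phosphate pathway branches off at glucose 6-phosphate and supplies NADPH and ribose for nucleotides. The early mouse embryo lives on pyruvate and takes up little glucose, and the blastocyst turns to glucose and makes lactate from it as the trophectoderm, its outer epithelium, forms.

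The sum of exon block counts per library ran from 15607227 to 18697754. Eif4a3 RNA was 302, 255 and 202 in NC, in counts scaled per 1e6 (CPM), and 16.0, 36.2 and 56.2 CPM after knockdown, 7.002-fold lower (log2 fold change −2.81, standard error 0.44, edgeR adjusted p 0.00512). Of 15619 genes tested, 869 (5.56%) were lower in the knockdown and 1174 (7.52%) were higher at an adjusted p under 0.05. Summed markers of each blastocyst lineage were present in all libraries, but single markers were not always. In the knockdown Elf5 had 4, 9 and 0 counts, Sox17 had 6, 1 and 1 and Pdgfra had 1, 15 and 9. The summed levels were 2104 to 5550 CPM in NC and 479 to 2129 CPM in the knockdown for 7 trophectoderm genes, and 374 to 529 CPM against 149 to 174 CPM for 6 epiblast and inner cell mass genes. For 6 primitive endoderm genes they were 644 to 804 CPM against 304 to 342 CPM. Single markers within these sums differed. Tdgf1 had 182 ± 59.0 against 5.03 ± 1.84 CPM and Sparc 182 ± 13.6 against 11.6 ± 4.81 CPM (mean ± SD, n = 3). By contrast, Klf4 had 18.5 ± 4.51 against 18.1 ± 6.40 CPM and Gata6 63.5 ± 3.97 against 58.3 ± 8.43 CPM. Of 8 cumulus cell markers 6 were at 0 in every library (Amh, Fshr, Cyp19a1, Ptx3, Has2 and Tnfaip6), and the summed level of all 8 reached 0.133 CPM in NC and at most 0.0469 CPM after knockdown. For 8 sperm and testis genes the sums were 2.98 to 5.45 against 5.95 to 13.6 CPM with Pgk2 at 0, for 5 red blood cell genes 7.22 to 48.5 against 3.66 to 6.14 CPM, and for 7 fibroblast genes 1.79 to 12.1 against 1.39 to 10.8 CPM. The median share of a gene's counts in its 3′-most block, a measure of coverage over 6389 genes, was 20.5 to 22.8% in NC and 18.1 to 22.8% in the knockdown.

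Most members had log2 fold changes below 0 in the knockdown, and 4 of them fell past the threshold. These were Slc2a3, a glucose transporter, Pfkl, the liver-type phosphofructokinase, Pgk1, the first ATP-making enzyme of glycolysis, and Pkm, the pyruvate kinase of the last step. Of 33 members 32 had enough counts to be tested, which left out the lactate carrier Slc16a3 (0 to 0.398 CPM in any library). Among the 32, 4 were lower, 0 were higher and 28 did not pass, beside 5.56% lower and 7.52% higher over all genes. With edgeR 15 of the 32 had an unadjusted p under 0.05, as did 4705 of all 15619 genes tested. The log2 fold change was below 0 for 23 members and above 0 for 9, with a median of −0.89, while over all genes tested 48.8% were below 0 and the median was 0.03. In 14 members every knockdown library was below every NC library, and in 1 (Aldoc) every one was above, beside 16.4% and 20.1% of all genes. In bulk RNA, fewer cells of a type and less RNA per cell cannot be told apart, and the same test called 3 of 6 trophectoderm, 2 of 6 epiblast and 2 of 5 primitive endoderm markers lower. Their part in the members' levels was not tested.

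The count of 4 rests on which libraries are in the fit. Without knockdown replicate 1 it was 12, with Eno1, Gpi1, Pgd, Pgm2, Slc16a1, Slc2a1, Tkt and Tpi1 added to the 4. Without knockdown replicate 2 it was 0, and without knockdown replicate 3, NC replicate 1 or NC replicate 2 it was 1. Without NC replicate 3 it was 3. DESeq2 called 11 members lower and 1 higher (Ldhb), and 12 were lower and 1 higher where no filter on low counts was used. With the most counted exon block of each gene in place of the sum, 7 were lower.

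**Figure D1:**
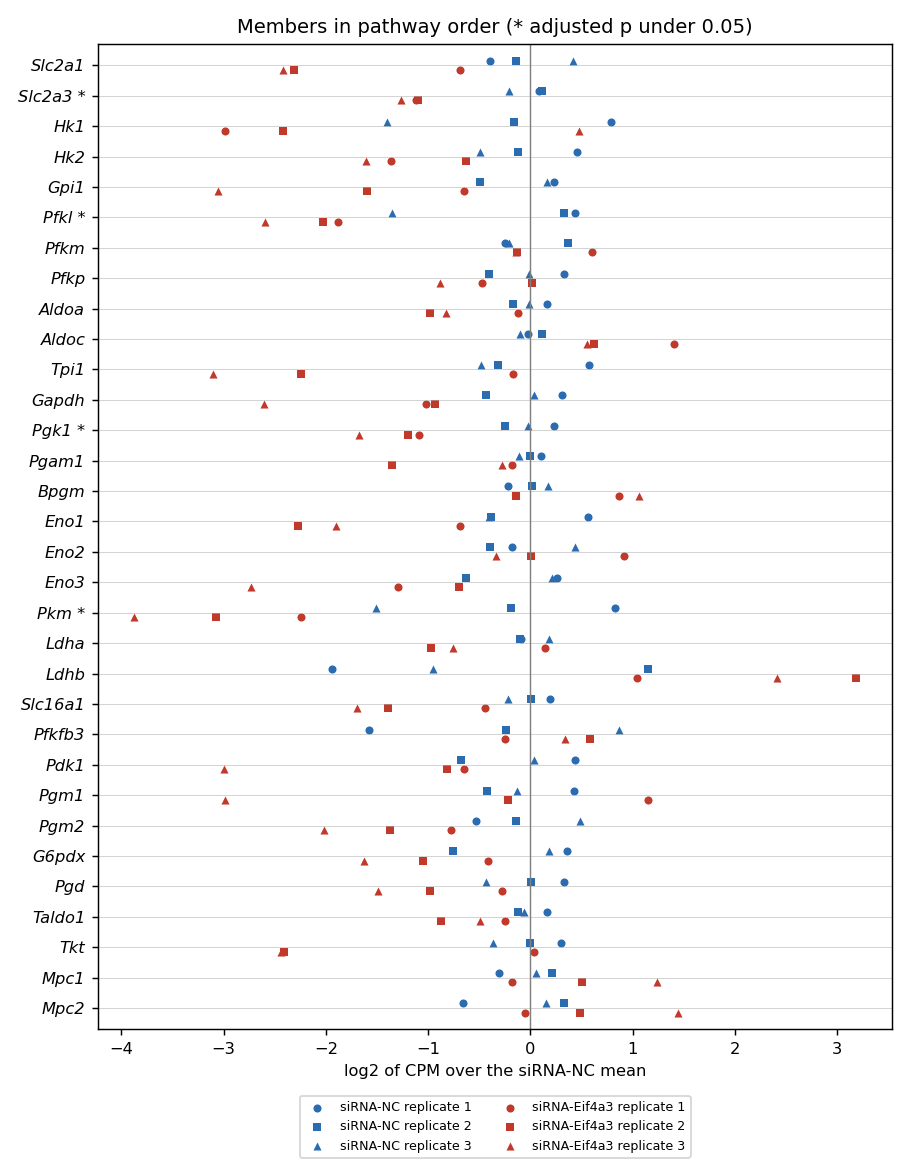
The log2 ratio of each library's CPM to the NC mean is plotted for the 32 tested members in pathway order, with NC libraries in blue and knockdown libraries in red, and stars for an adjusted p under 0.05. Most red points lie left of 0, the lowest point is Pkm in knockdown replicate 3, and Ldhb, Mpc1 and Mpc2 have red points to the right.

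Levels were compared between members per length, as CPM per kilobase of merged exon (RPKM). A read pair can count in more than 1 exon block, so RPKM also depends on how a gene is divided into blocks. Gapdh had 2 blocks over 4133 bases and Aldoa had 12 over 2911 bases. The order of members by RPKM is therefore rough. In NC the highest member was Aldoa, the aldolase that splits fructose bisphosphate, at 357 ± 40.9 RPKM (mean ± SD, n = 3). Taldo1, the transaldolase of the pentose phosphate pathway, followed at 143 ± 15.2 RPKM. The pyruvate carrier subunit Mpc1 had 120 ± 21.2 RPKM and Gapdh, the NADH-making dehydrogenase often used as a reference gene, had 100.2 ± 24.9 RPKM. The values of Taldo1 and Mpc1 in single NC libraries overlapped, as did those of Mpc1 and Gapdh, so their order is not resolved by 3 libraries. Eno1 (75.6 ± 31.5 RPKM), Pgk1 (41.3 ± 6.77 RPKM), Slc2a3 (35.5 ± 4.24 RPKM) and Tpi1 (33.5 ± 14.1 RPKM) came next, and neighbours in this order overlapped too, except Eno1 and Pgk1. At the low end of the tested genes stood Pdk1, a kinase that switches off pyruvate dehydrogenase, at 0.246 ± 0.0896 RPKM and Pfkfb3, which makes the phosphofructokinase activator fructose 2,6-bisphosphate, at 0.177 ± 0.133 RPKM.

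For both glucose transporters all knockdown libraries lay below all NC libraries, and 1 of the 2 passed the test. Slc2a3 (GLUT3) lies on chromosome 6 from 122727809 to 122801640 on the minus strand of GRCm38. It had 272, 278 and 222 CPM in NC and 118, 120 and 107 CPM in the knockdown. The knockdown values stood close together, and the gap between the groups was wider than the spread within either. Slc2a3 was 2.23-fold lower (257 ± 30.7 against 115 ± 6.83 CPM, log2 fold change −1.16, standard error 0.26, edgeR adjusted p 0.0186). Its call was lost without NC replicate 1 (adjusted p 0.0540), NC replicate 2 (0.0719), knockdown replicate 2 (0.0567) or knockdown replicate 3 (0.0577). Slc2a1 (GLUT1), the broadly expressed transporter, had 65.5, 77.9 and 114 CPM in NC and 53.4, 17.3 and 16.1 CPM in the knockdown. The first knockdown library lay just under the NC range and replicates 2 and 3 far under it, and Slc2a1 did not pass (log2 fold change −1.57, standard error 0.48, adjusted p 0.0553).

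In the upper part of the pathway, from hexokinase to triose phosphate isomerase, 1 of 9 members passed the test as lower, beside 5.56% of all genes. The log2 fold change was below 0 for 7 of the 9. In 3 every knockdown library was below every NC library and in 1 every one was above, beside 16.4% and 20.1% of all genes. Hk2, the hexokinase that traps glucose in the cell, was by summed counts the more abundant of the 2 measured. It had 49.2, 33.002 and 25.5 CPM in NC and 13.96, 23.3 and 11.7 CPM in the knockdown (log2 fold change −1.14, adjusted p 0.0754). The last Hk2 block held 83.9 ± 5.56% of the gene's counts in NC and 90.8 ± 5.18% in the knockdown (mean ± SD). The level and change of Hk2 thus describe mainly that block, and its order against Hk1 was not tested outside it. Hk1 had 0.984 to 4.48 CPM in NC and 0.328 to 3.61 CPM in the knockdown, with overlapping groups. Gpi1, which converts glucose 6-phosphate to fructose 6-phosphate, had 209, 126 and 200 CPM in NC and 114, 59.1 and 21.5 CPM in the knockdown. Its groups did not overlap, and it did not pass the test (log2 fold change −1.46, adjusted p 0.0836).

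Phosphofructokinase commits the sugar to glycolysis, and of its 3 isozyme genes 1 passed the test. Pfkl (chromosome 10, 77986947 to 78010083, minus strand, GRCm38) had 17.8, 16.5 and 5.12 CPM in NC and 3.56, 3.21 and 2.17 CPM in the knockdown. NC replicate 3 was far below NC replicates 1 and 2 and still above each knockdown library. Pfkl was 4.40-fold lower (13.1 ± 6.95 against 2.98 ± 0.725 CPM, log2 fold change −2.13, standard error 0.52, edgeR adjusted p 0.0253). The call was lost with the most counted block alone (adjusted p 0.105) and without NC replicate 1 (0.0806), NC replicate 2 (0.0877), knockdown replicate 2 (0.0723) or knockdown replicate 3 (0.0756). Pfkm, the muscle-type isozyme, had 2.29, 3.52 and 2.36 CPM in NC and 4.12, 2.48 and 2.47 CPM in the knockdown, and Pfkp, the platelet type, had 2.86 to 4.73 against 2.05 to 3.82 CPM. Neither passed (adjusted p 0.863 and 0.613).

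As a share of the summed RPKM of the 3 phosphofructokinase genes, which does not depend on how libraries are scaled, Pfkl took 71.9, 66.1 and 43.7% in NC and 27.1, 31.9 and 26.7% in the knockdown. Pfkm took 18.5, 28.2 and 40.3% in NC and 62.6, 49.3 and 60.8% in the knockdown. By RPKM, Pfkl was the larger of this pair in every NC library and Pfkm in every knockdown library. This order depends on the merged lengths, 6675 bases for Pfkl and 3340 for Pfkm. Of the Pfkl bases, 2212 lie in 1 block with at most 8 counts in a library. Counts not divided by length were 76, 53 and 36 for Pfkl in the knockdown and 88, 41 and 41 for Pfkm. The second Pfkm block, which lies in another annotated gene on the same strand, held 4, 1 and 5 counts in NC and 28, 9 and 14 in the knockdown, of 41 to 88 for Pfkm there. Without that block, left out after the values were seen, Pfkl took 71.7, 64.4 and 44.5% in NC and 31.9, 34.1 and 31.8% in the knockdown. Pfkm then took 18.8, 30.05 and 39.3% against 56.01, 45.8 and 53.2%, so the groups still did not overlap. The means were 60.6 ± 14.9 against 28.5 ± 2.88% for Pfkl and 29.03 ± 10.9 against 57.6 ± 7.24% for Pfkm. For each the exact two-sided permutation p was 0.1, the smallest that 3 against 3 allows, and 0.333 after adjustment over the 10 isozyme shares computed. The isozymes of a family share these sums, so their shares are not independent.

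Aldoa had 1161, 923 and 1032 CPM in NC and 952, 527 and 585 CPM in the knockdown, with the first knockdown library inside the NC range (log2 fold change −0.59, adjusted p 0.241). The rarer aldolase Aldoc had 1.94, 2.12 and 1.84 CPM in NC and 5.201, 3.03 and 2.89 CPM in the knockdown, where every library was above NC, but it did not pass (log2 fold change 0.91, adjusted p 0.235). Aldoa made up 99.8% of the pair in NC and 99.5% in the knockdown. Tpi1, which interconverts the triose phosphates, had 137, 74.0 and 66.0 CPM in NC and 82.2, 19.4 and 10.8 CPM in the knockdown, with overlapping groups (log2 fold change −1.30, adjusted p 0.206).

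In the lower part, from Gapdh to pyruvate kinase, 2 of 8 members passed the test as lower, beside 5.56% of all genes. In 6 of 8 every knockdown library was below every NC library, beside 16.4% of all genes. Gapdh had 512, 307 and 425 CPM in NC and 204, 218 and 67.9 CPM in the knockdown (log2 fold change −1.34, standard error 0.43, adjusted p 0.0653). Pgk1 (X chromosome, 106187100 to 106203699, plus strand, GRCm38) had 108, 78.2 and 91.1 CPM in NC and 43.6, 40.3 and 28.9 CPM in the knockdown. The lowest NC library was well above the highest knockdown library. Pgk1 was 2.46-fold lower (92.6 ± 15.2 against 37.6 ± 7.68 CPM, log2 fold change −1.30, standard error 0.29, edgeR adjusted p 0.0186). All 11 of its exon blocks were lower on average, by 1.80-fold to 3.05-fold. The call was lost without NC replicate 1 (adjusted p 0.0681), NC replicate 2 (0.0503), NC replicate 3 (0.0518), knockdown replicate 2 (0.0542) or knockdown replicate 3 (0.0590).

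The Pgk1 promoter is shown because ACGTG, the core of the sites that hypoxia-inducible factor and related factors are known to bind, recurs in it and is frequent among the members' promoters. These are the 250 bases before the RefSeq start site on the plus strand of GRCm38.p6, chrX:106186850-106187099, with the 2 matches to the motif, 1 on each strand, in capitals.

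Pgk1 promoter: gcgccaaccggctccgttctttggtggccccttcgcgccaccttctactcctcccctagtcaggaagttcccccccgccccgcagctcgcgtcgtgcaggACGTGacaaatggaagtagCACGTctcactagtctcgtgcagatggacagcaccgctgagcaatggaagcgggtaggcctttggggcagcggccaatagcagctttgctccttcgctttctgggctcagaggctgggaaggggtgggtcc

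The matches begin at positions −150 and −131 from the start site. RefSeq promoter windows of 300 bases (250 before to 50 after a start site, GRCm38.p6) were found for 32 of the 33 members, all but Slc2a3, 47 windows in all. ACGTG, searched on both strands, was in 20 of the 47 windows (42.6%) and in 19.6% of all 32851 windows. The windows with a match belonged to 17 members, among them Pgk1, Pkm, Hk2 and Slc2a1, and none of them to Pfkl. The full palindrome CACGTG, which contains ACGTG, was in 8.51% of the members' windows and in 7.15% of all, and TATAAA was in 6.38% and 13.6%. Members with several start sites have windows that can overlap, and a match is a description of the letters only.

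The phosphoglycerate mutase Pgam1 had 45.5, 42.3 and 39.1 CPM in NC and 37.4, 16.6 and 34.8 CPM in the knockdown (log2 fold change −0.52, adjusted p 0.349), while Bpgm, which makes 2,3-bisphosphoglycerate, had 2.64 to 3.48 against 2.79 to 6.44 CPM. Eno1, the main enolase, had 602, 312 and 306 CPM in NC and 252, 84.4 and 109 CPM in the knockdown. Its highest knockdown library stayed below the lowest NC library (log2 fold change −1.45, standard error 0.45, adjusted p 0.0605). The muscle enolase Eno3 had 4.38 to 8.16 against 1.02 to 4.18 CPM and the neuronal enolase Eno2 had 1.33 to 2.36 against 1.38 to 3.28 CPM. Neither passed (adjusted p 0.134 and 0.763), and Eno1 made up 84.96 to 95.8% of the summed enolase RPKM in every library.

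**Figure D2:**
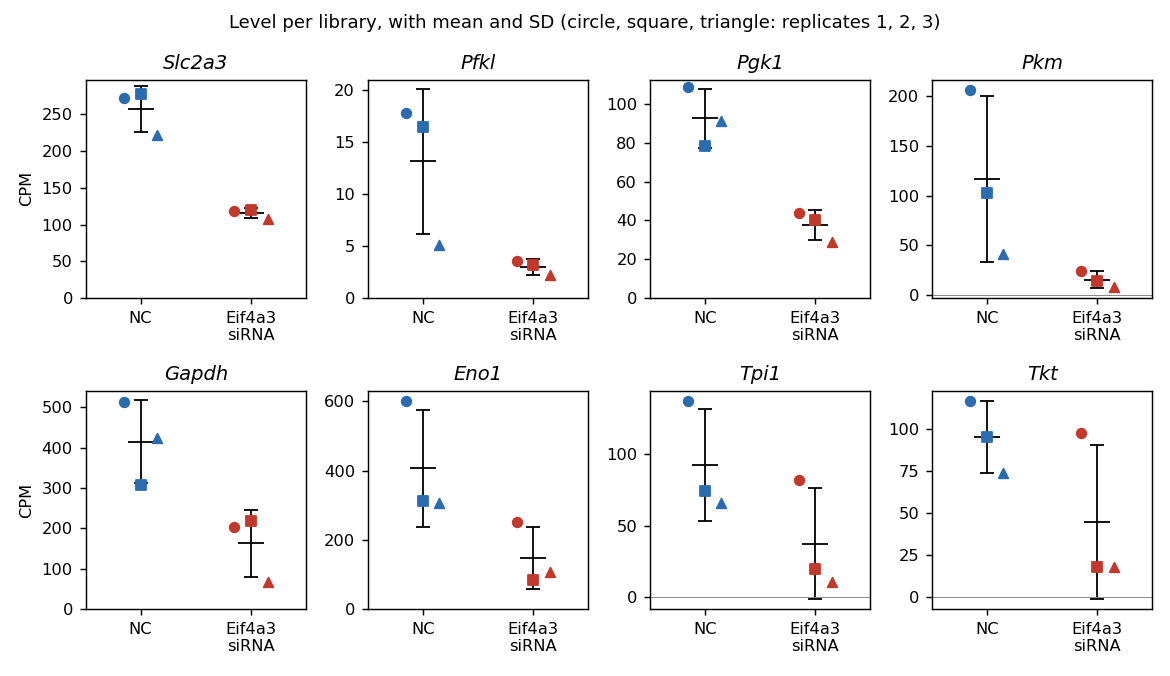
CPM per library is plotted for 8 members on linear axes, NC in blue and knockdown in red, with circles, squares and triangles for replicates 1, 2 and 3 and bars for the mean and SD (n = 3). Slc2a3, Pfkl, Pgk1 and Pkm in the top row have groups that do not overlap, whereas for Tpi1 and Tkt in the bottom row knockdown replicate 1 (82.2 and 97.9 CPM) lies within the NC range and knockdown replicates 2 and 3 lie far below it.

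Pkm was the member with the lowest log2 fold change. It lies on chromosome 9 from 59656368 to 59679375 on the plus strand of GRCm38. It had 207, 102 and 40.9 CPM in NC and 24.6, 13.9 and 7.94 CPM in the knockdown. The NC libraries themselves spanned 5.04-fold, and the lowest of them was still above the highest knockdown library. Pkm was 7.54-fold lower (117 ± 83.7 against 15.5 ± 8.42 CPM, log2 fold change −2.91, standard error 0.60, edgeR adjusted p 0.0132). Without knockdown replicate 2 the adjusted p was 0.0583, and the call held in the other 12 of 13 alternatives. Within each group Pkm was highest in replicate 1 and lowest in replicate 3, and so was the sum of the 7 trophectoderm markers, which Krt8 and Krt18 dominate. The sum was 5550, 4245 and 2104 CPM in NC and 2129, 1045 and 479 CPM in the knockdown, and Cdx2, a trophectoderm transcription factor, had 142, 64.3 and 36.8 CPM and 42.1, 16.0 and 10.6 CPM. Only Cdx2, Krt8 and Krt18 of the 7 had this order in both groups, and Gata3, Eomes, Elf5 and Tfap2c did not. Their part in the Pkm levels was not tested.

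Pkm was lower along the whole transcript. Of its 17 exon blocks 13 held counts and 11 could be tested for usage, that is, for a change in the block's share of the gene. The 11 were lower by 6.33-fold to 8.71-fold with a median of 8.10-fold, and in 8 of the 11 the highest knockdown library was under the lowest NC library. The last block held 18.7, 28.8 and 41.5% of the gene's counts in NC and 20.99, 41.5 and 31.8% in the knockdown. With edgeR's exon usage test 0 of the 11 passed and 0 had an unadjusted p under 0.05 (lowest p 0.688, adjusted p 0.999999), where 0.168% of all 67890 blocks tested passed. The fit had a term for group and none for library, so the 5.04-fold spread of Pkm between NC libraries enters it. A change in share can be missed for that reason.

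**Figure D3:**
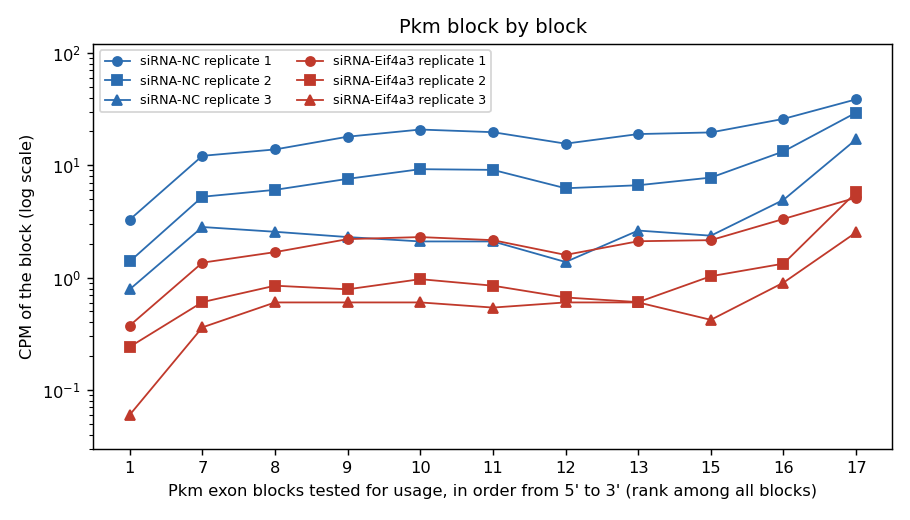
CPM on a log axis is plotted for the 11 tested Pkm blocks from 5′ to 3′, one line per library, NC in blue and knockdown in red. All 6 lines rise toward the 3′ end, and knockdown replicate 1 meets NC replicate 3 in the middle of the gene while the other knockdown libraries stay below.

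Pkm makes pyruvate kinase M1 or M2 by including one of a pair of mutually exclusive exons. M2 is the form of embryonic and proliferating cells, and M1 that of adult muscle and brain. The 2 exons are shown because the counts on them separate the isoforms. Both are 167 bases long and lie on the plus strand of GRCm38, M1 at chr9:59675029-59675195 and M2 at chr9:59675568-59675734, as taken from GENCODE vM21 transcripts. They have the same base at 103 positions, and capitals mark the 64 positions at which they differ.

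Pkm M1 exon: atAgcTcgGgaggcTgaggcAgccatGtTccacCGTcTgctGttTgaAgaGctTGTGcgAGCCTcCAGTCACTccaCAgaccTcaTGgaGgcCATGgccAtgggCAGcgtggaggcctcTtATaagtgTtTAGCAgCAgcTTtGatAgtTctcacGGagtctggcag

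Pkm M2 exon: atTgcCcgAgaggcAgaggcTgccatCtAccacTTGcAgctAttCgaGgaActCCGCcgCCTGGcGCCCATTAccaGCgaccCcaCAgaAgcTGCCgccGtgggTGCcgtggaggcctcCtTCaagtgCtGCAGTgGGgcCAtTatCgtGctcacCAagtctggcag

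The M2 exon had 394, 117 and 36 counts in NC and 46, 17 and 7 in the knockdown. The exon block with M1, which extends past the exon's end, had 5, 5 and 0 counts in NC and 3, 2 and 2 in the knockdown. M2 was thus the main form in all 6 libraries. Its share of the 2 was 98.7% in NC replicate 1 (exact binomial 95% interval 97.1 to 99.6%), 95.9% (90.7 to 98.7%) in replicate 2 and 100% (90.3 to 100%) in replicate 3. In the knockdown it was 93.9% (83.1 to 98.7%), 89.5% (66.9 to 98.7%) and 77.8% (40.0 to 97.2%). The intervals cover counting error only and overlap for every pair of libraries, so the M2 share in the knockdown is known only roughly. The group means were 98.2 ± 2.10 and 87.0 ± 8.32%, a difference of −11.2 points (exact two-sided p 0.1, the smallest possible with n = 3). It was −19.1 points where all distinct exon lines were summed and −6.54 points without knockdown replicate 3. Pooled over libraries the M1 block had 10 counts in NC and 7 in the knockdown, and the M2 exon 547 and 70. Another annotated gene on the same strand (Gm49759) overlaps 15.3% of the exon bases of Pkm, in the stretch with these 2 exons.

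Over the members as a whole, no exon block passed the test for a changed share. Of 189 blocks tested in 25 members, 0 passed the edgeR usage test and 0 had an unadjusted p under 0.05 (lowest p 0.126, adjusted p 0.999999), beside 0.168% of blocks passing over all genes. Over all genes 1689 of 67890 blocks had an unadjusted p under 0.05. The fit had no term for library, so differences between libraries of a group can hide a change in share. Among the members, the lowest p belonged to a block of Slc2a3, the 8th of 14 from the 5′ end. It was 1.51-fold lower, while the last Slc2a3 block, which holds the end of the transcript, was 3.06-fold lower. The last block held 51.0, 54.3 and 50.9% of Slc2a3 counts in NC and 41.8, 43.6 and 27.99% in the knockdown. The 3 knockdown shares lay below the 3 NC shares, a difference that the usage test did not pass (p 0.235, adjusted p 0.999999).

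At the branch after glycolysis, 0 of 5 tested members passed. Ldha, the main lactate dehydrogenase subunit, had 46.4, 46.0 and 56.2 CPM in NC and 54.7, 25.3 and 29.3 CPM in the knockdown (log2 fold change −0.44, adjusted p 0.422). Ldhb, the heart-type subunit, had 0.398, 3.39 and 0.787 CPM in NC and 3.14, 13.9 and 8.12 CPM in the knockdown. It had the highest log2 fold change of all members (2.47, standard error 0.81), although the groups overlapped by a little and it missed the threshold (edgeR adjusted p 0.0699). Per length, Ldha made up 98.2, 86.6 and 97.1% of the pair in NC and 89.2, 46.4 and 63.1% in the knockdown. NC replicate 2 fell below knockdown replicate 1, and the difference gave an exact two-sided p of 0.2 (0.5 adjusted over the 10 shares).

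**Figure D4:**
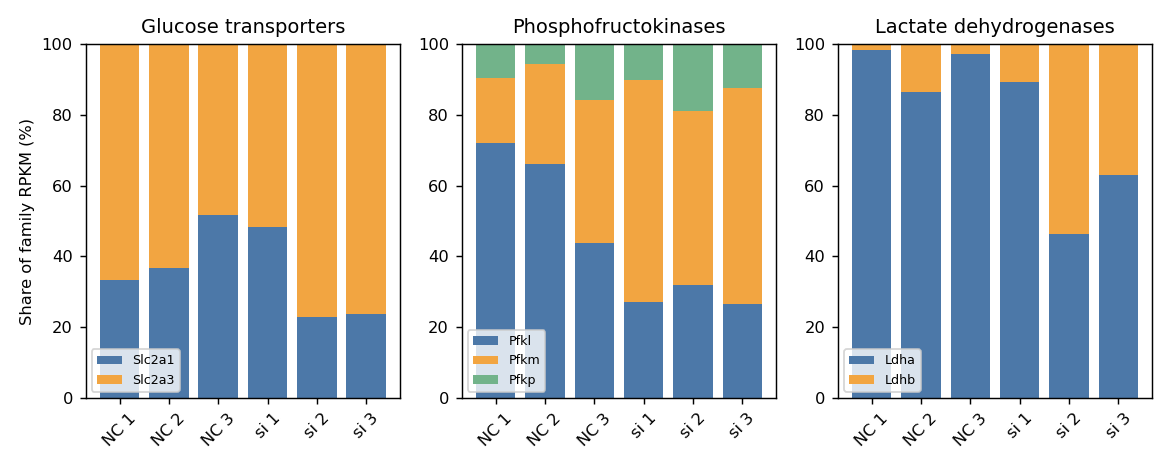
Stacked bars show each isozyme's share (%) of the summed RPKM of its family in the 3 NC libraries (NC) and the 3 knockdown libraries (si). Pfkl falls from 43.7 to 71.9% in NC to 26.7 to 31.9% in the knockdown, Ldhb takes more of its pair in 2 knockdown libraries than in any NC library, and the 2 glucose transporters show overlapping shares.

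Slc16a1, the lactate and pyruvate carrier of the plasma membrane, had 26.8, 23.6 and 20.1 CPM in NC and 17.3, 8.96 and 7.28 CPM in the knockdown (log2 fold change −1.07, adjusted p 0.0972). Its relative Slc16a3 was near 0 in all 6 libraries. Mpc1 and Mpc2, which together form the mitochondrial pyruvate carrier, were highest in knockdown replicate 3. Mpc1 had 203, 289 and 260 CPM in NC and 221, 356 and 590 CPM in the knockdown, and Mpc2 had 63.5, 126 and 111 against 96.7, 140 and 272 CPM. In both the groups overlapped and the test was not passed (log2 fold change 0.63 and 0.76, adjusted p 0.280 and 0.245). Exons of other genes overlap 23.1% of the Mpc1 exon bases, all on the other strand, and if the library does not mark strand those counts cannot be told apart.

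The 2 kinases were near the lower limit of measurement. Pfkfb3 had 0.448 to 2.43 CPM in NC and 1.12 to 1.999 CPM in the knockdown, and Pdk1 had 1.20 to 2.59 against 0.241 to 1.22 CPM (adjusted p 0.828 and 0.293). Of the 2 genes named as phosphoglucomutases, Pgm2 was lower in every knockdown library (34.8, 45.6 and 70.7 against 29.5, 19.4 and 12.4 CPM, log2 fold change −1.30, adjusted p 0.0573). Pgm1, which links glucose 6-phosphate to glycogen, had 24.9, 13.8 and 17.0 CPM in NC and 41.0, 15.9 and 2.35 CPM in the knockdown. Its knockdown libraries lay on both sides of NC, and the log2 fold change of 0.093 became −1.06 without knockdown replicate 1.

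All 4 pentose phosphate members had log2 fold changes below 0 and none passed the test. G6pdx, the enzyme that opens the NADPH-making branch, had 96.8, 44.7 and 85.7 CPM in NC and 56.7, 36.6 and 24.5 CPM in the knockdown (log2 fold change −0.95, adjusted p 0.137). Pgd, the next NADPH-making enzyme, had 160, 128 and 94.4 against 105, 64.6 and 45.4 CPM (−0.83, 0.151). Both had overlapping groups. Taldo1 had 348, 286 and 297 CPM in NC and 260, 169 and 220 CPM in the knockdown, where every library was below NC (−0.52, 0.241). Tkt, the transketolase, had 117, 95.4 and 73.8 CPM in NC and 97.9, 17.9 and 17.6 CPM in the knockdown (−1.10, 0.251).

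The 3 knockdown libraries differed among themselves. Among the 23 members with a log2 fold change below 0, knockdown replicate 1 was the highest of the 3 knockdown libraries in 17 (73.9%), and replicate 3 was the lowest in 17. Over the 7617 such genes of the whole table these shares were 39.9% and 37.4%. Knockdown replicate 1 was 5.51-fold above the mean of replicates 2 and 3 for Tkt, 5.44-fold for Tpi1, 3.21-fold for Slc2a1, 2.82-fold for Gpi1 and 2.60-fold for Eno1. Among the 4 members that passed, the same ratio was 1.04 for Slc2a3, 1.26 for Pgk1, 1.32 for Pfkl and 2.25 for Pkm. Eif4a3 itself had the opposite order, with 16.0 CPM in replicate 1 and 56.2 CPM in replicate 3. Knockdown replicate 1 also had the highest trophectoderm marker sum of its group (2129 CPM against 1045 and 479 CPM). The part of these in the members' order was not tested.

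Among 95 further genes of sugar metabolism and its control, listed by function, 93 matched a symbol and 76 were tested. Of these 3 were higher and 11 lower, beside 7.52% higher and 5.56% lower over all genes tested. The same shares stand beside the counts by function given below. The log2 fold change was below 0 for 53 with a median of −0.33, while over all genes tested 48.8% were below 0 and the median was 0.03. Without knockdown replicate 2 the counts were 1 and 2, without NC replicate 1 they were 2 and 5, without NC replicate 2 they were 1 and 3, without NC replicate 3 they were 1 and 4, and without knockdown replicate 3 the lower count was 4. Got1 and Prps2 passed in all 13 alternatives. Mycn passed in 11 of the 12 that gave it a value, Pygb in 10 of 12 and Fbp2 in 10 of 13, and Galk1, Pdk2 and Tktl1 passed in 9 of 13. Gnpnat1, Myc, Slc25a13 and Slc2a8 passed in 8 of 13, Mpi in 7 of 13 and Gfpt2 in 3 of 11.

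Of 18 regulators 3 passed the test as lower. Mycn and Myc encode transcription factors whose known targets include glycolytic genes. Mycn had 7.56, 4.65 and 3.61 CPM in NC and 0, 0.606 and 0.120 CPM in the knockdown (log2 fold change −4.46, edgeR adjusted p 0.0155). Myc had 17.955, 14.8 and 26.3 against 5.11, 1.999 and 8.004 CPM (−1.97, 0.0309). Pdk2, which like Pdk1 inhibits pyruvate dehydrogenase, had 12.2, 13.0 and 15.6 against 5.39, 1.70 and 2.71 CPM (−2.05, 0.0208). In each the 2 groups were apart. None of 5 pyruvate dehydrogenase genes passed.

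Of 9 genes of the shuttles that carry NADH electrons into mitochondria 2 passed the test as lower, both of the malate-aspartate shuttle. Got1, the cytosolic aspartate aminotransferase, had 599, 380.1 and 480 CPM in NC and 83.8, 61.6 and 53.9 CPM in the knockdown, 7.32-fold lower (log2 fold change −2.87, standard error 0.32, edgeR adjusted p 0.00143). Slc25a13, an aspartate-glutamate carrier, had 70.1, 74.0 and 104 against 40.2, 27.7 and 15.7 CPM (−1.57, 0.0236). Of 4 gluconeogenic genes tested 1 passed as lower. In all 4 every knockdown library was below every NC library, beside 16.4% of all genes. Fbp2, a fructose bisphosphatase, had 1262, 1459 and 1639 CPM in NC and 616, 467 and 696 CPM in the knockdown (−1.29, 0.0208). Slc2a8, an intracellular glucose transporter and 1 of 10 other isozymes and transporters tested, fell from 51.5 ± 10.4 to 21.6 ± 6.14 CPM (−1.25, 0.0341).

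Of 10 glycogen genes 1 passed the test as lower, the brain-type glycogen phosphorylase Pygb (8.67 ± 5.94 against 0.631 ± 0.499 CPM, log2 fold change −3.75, edgeR adjusted p 0.0164). Among 12 genes of the hexosamine, mannose, galactose and sorbitol routes 3 passed as lower and 1 as higher. Galk1, galactokinase, had 215, 172 and 42.5 CPM in NC and 35.5, 31.2 and 26.6 CPM in the knockdown (−2.20, 0.0202), with NC replicate 3 near the knockdown level. Mpi, which makes mannose 6-phosphate, went from 34.6 ± 6.41 to 14.9 ± 2.41 CPM (−1.21, 0.0311). Gfpt2, which encodes a form of the enzyme that opens the hexosamine route, went from 2.83 ± 0.695 to 0.694 ± 0.337 CPM (−2.02, 0.0498). Its counts were low, at 63, 50 and 31 in NC and 11, 8 and 18 after knockdown. The more abundant relative Gfpt1 had overlapping groups, at 14.6 ± 2.71 against 13.9 ± 3.63 CPM (−0.066, 0.853). The fall of Gfpt2 thus does not describe both genes. Gnpnat1, a later enzyme of that route, rose from 265 ± 90.3 to 636 ± 149 CPM (1.26, 0.0397). Exons of other genes overlap 83.5% of its exon bases.

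Both genes that passed as higher among 8 tested from the rest of the pentose phosphate pathway lie beyond its oxidative steps. Prps2, which makes the nucleotide precursor phosphoribosyl pyrophosphate from ribose 5-phosphate, had 10.8, 7.90 and 14.04 CPM in NC and 31.9, 56.3 and 44.2 CPM in the knockdown. It was 4.04-fold higher, with a gap between the groups (log2 fold change 2.01, standard error 0.36, edgeR adjusted p 0.00792). Tktl1, a transketolase-like protein, had 8.26, 7.30 and 6.23 CPM in NC and 20.2, 29.7 and 17.2 CPM in the knockdown, 3.08-fold higher (1.62, 0.0169).

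**Figure D5:**
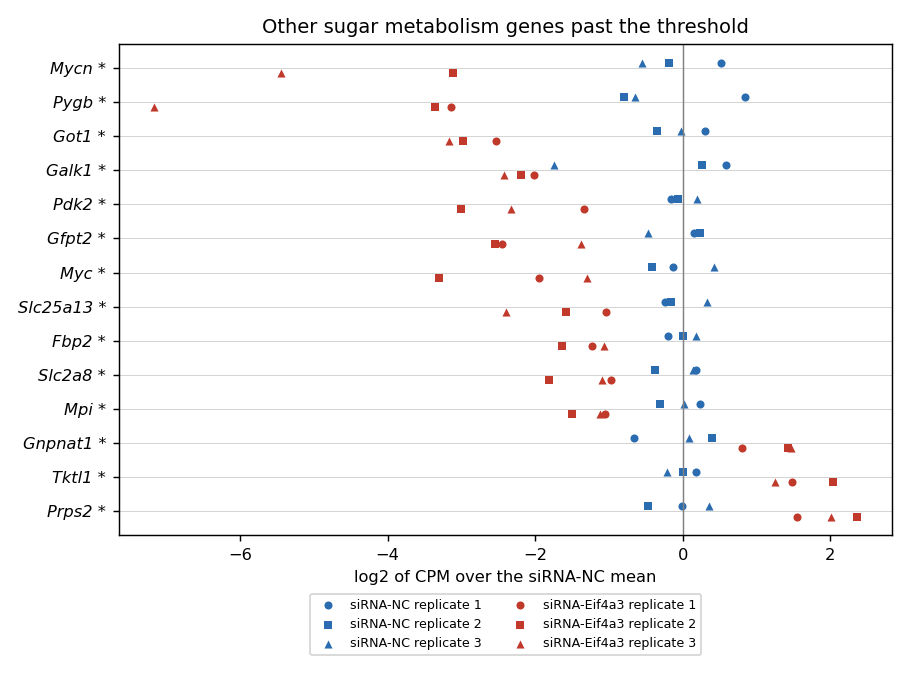
The log2 ratio of each library's CPM to the NC mean is plotted for the 14 other sugar metabolism genes that passed the test, NC in blue and knockdown in red. The 11 genes that fell have all red points left of the blue ones, the 3 that rose have them to the right, and Mycn shows 2 knockdown points because knockdown replicate 1 had 0 counts.

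Some members have copies elsewhere in the genome that are named after them, whose sequences were not compared. The annotation names 6 such copies of Tpi1, 3 of Pgk1, 2 each of Aldoa, Gapdh, Pgam1 and Ldha, and 1 of Mpc1. Copies under other names, if any, are not in these numbers. Read pairs that aligned to several places were not counted per the command in the file header, so the levels of these genes may be too low in all libraries, and their order by RPKM is uncertain. Among the members that passed the test, Pgk1 is the one with copies named in this way. Exons of other genes also overlap 13.6% of the exon bases of Pgm1, 13.6% of G6pdx and 10.7% of Pfkm.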

How the data were processed

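RNA of 6 libraries was analysed, 3 per group. The authors deposited raw counts of read pairs per annotated exon. Per the file headers these were made with featureCounts v2.0.1, GENCODE vM29 moved to GRCm38, strand setting 2, pairs counted in every exon they overlapped and no option for pairs with several alignments. Per the submitters' processing notes FastQC 0.11.9, fastp 0.20.1, STAR 2.7.6a, featureCounts 2.0.1, R 4.1.1 and DESeq2 1.34.0 were used. Smart-seq2 as usually made does not mark strand, and the labels do not say whether these libraries do. If they do not, strand setting 2 leaves out the pairs in the other orientation, and counts of a gene and an antisense gene cannot be told apart.

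The planned tests assumed counts per gene, which were built from the 842173 deposited lines (449500 distinct exons). Within a gene, exons that overlap were joined to give 291424 blocks. A block took the count of its most counted line, and a gene the sum of its blocks. A pair over a splice junction can count in 2 blocks, so these sums are not numbers of pairs. CPM uses the effective library size, and RPKM divides it by the merged exon length. Genes were tested with edgeR 4.0.16 (filterByExpr, TMM, glmQLFit, glmQLFTest, two-sided) under R 4.3.3, with Benjamini-Hochberg adjustment over 15619 genes and a threshold of 0.05. Exon usage was tested with diffSpliceDGE over 67890 blocks. Shares per library had exact two-sided permutation tests. The fits were tested on simulated data, for exon usage with the blocks of a gene drawn independently of each other. Alternatives were RLE scaling, DESeq2 1.42.0, no filter, a filter of 5 CPM in 3 libraries, all lines summed, the most counted block, a replicate block and leaving out each library.

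The members and the gene lists were chosen with earlier results of these data known. All 33 members are named, and of the other pathway genes those that passed and Gfpt1. Prps1 and Gfpt1, relatives of genes that passed, were added after the values were seen.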

Additional observations from a re-analysis of the deposited data

How the results depend on the processing

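Leaving out 1 library at a time gave 0 to 12 members lower and 0 to 1 higher, 1 to 3 other pathway genes higher and 2 to 14 lower, and 550 to 1224 genes higher and 336 to 1130 lower over the whole table. It also gave 3 to 5 of 10 isozyme shares with groups that did not overlap, against 3 with all libraries and 5 without knockdown replicate 1, and a Pkm M2 share difference of −14.6 to −6.54 points. DESeq2 called 11 members lower and 1 higher, and 1829 genes higher and 1490 lower. Without a filter on low counts 12 members were lower and 1 higher, 17 other pathway genes were lower, and 2089 genes were higher and 1518 lower. The most counted block gave 7 members lower. The labels number the replicates 1 to 3 in both groups without saying what a number shares. After group means were removed, libraries with the same number had correlations of 0.27, 0.00 and 0.10, and the best match of NC replicate 2 was replicate 3 of the knockdown (0.19), so the numbers were not taken as pairs. With the replicate number as a replicate block, 12 members were lower and 1 higher (Ldhb), 3 other pathway genes were higher and 12 lower, and 0 member blocks changed usage. RLE scaling and summing all lines kept the 4 called members. The filter of 5 CPM in 3 libraries left 21 members, of which 3 were lower.

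Signs turned in 5 members with log2 fold changes near 0. Leaving out 1 library at a time gave −0.17 to 0.34 for Pfkm, −0.19 to 0.56 for Eno2, −0.18 to 1.01 for Pfkfb3 and −1.06 to 0.61 for Pgm1. With the most counted block the values were 0.081 for Pfkp, −0.43 for Eno2 and −0.29 for Pgm1, and Pgm1 had −0.50 with the replicate block. Differences of isozyme shares, in points, turned to 1.38 for Slc2a1, −0.0776 for Hk1 and −15.7 for Pfkp with the most counted block. With 1 library left out they were −2.91 to 5.23 for Hk1, −4.17 to 1.26 for Eno1 and −0.823 to 0.00652 for Slc16a1. The cause was not tested. Depth limits Slc16a3, Hk1, Pdk1, Pfkfb3 and the Pkm M1 block most, since they had few counts per library.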
